A study of Mus musculus with 10 samples.

Results

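Imprinted genes are expressed from one parental copy, and the 9 described here are classed in mouse as expressed from the paternal copy: Peg3, Usp29, Peg10, Sgce, Mest, Plagl1, Impact, Nnat and Inpp5f. They were taken by gene symbol from a table of 52632 genes, each symbol matching 1 row, and lie on chromosomes 2, 6, 7, 10 and 18. In 7 of the 8 members that could be read by allele, at least 90% of allele-resolved counts came from the Castaneus (Cast) copy, which the labels give as paternal, in every female library whose neighbouring genes carried Cast, against 1.81% of all 11183 autosomal genes read the same way. Peg3, Usp29 and Impact were read so in 1 E147A/+ and 1 +/+ library each, but Peg10, Sgce, Mest and Plagl1 in 1 E147A/+ library only, so those 4 were not read in +/+ cells. In its other female libraries, where the state of the neighbours was mixed, Impact stayed under 90%. Without E147A/+ replicate 1 the count falls from 7 of 8 readable members to 4 of 5. Inpp5f did not reach this share, and Nnat had too few allele-resolved counts to read. No member passed the test of a difference between E147A/+ and +/+ cells.

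The series measured polyA RNA in neural stem cells grown as adherent cultures from the cortex of embryos at embryonic day 14.5. SMCHD1 helps to keep genes silent on the inactive X chromosome and at some imprinted and clustered loci, and E147A changes its ATPase domain. Female E147A/+ cells were Smchd1GFP-E147A/+; XistdeltaA/+ (2 libraries, litters 1 and 2) and female +/+ cells were Smchd1+/+; XistdeltaA/+ (2 libraries, both litter 3). Male E147A/+ cells were Smchd1GFP-E147A/+; XY (3 libraries, litters 1, 1 and 3) and male +/+ cells were Smchd1+/+; XY (3 libraries, litters 4, 1 and 3). All embryos are labelled as offspring of a Castaneus father and a mother that was a cross of 129 and C57, so every group carries mixed maternal alleles, and all female groups also carry the XistdeltaA allele. Counts split into 129 and Cast alleles were available for the 4 female libraries. In females, genotype and litter cannot be told apart.

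An imprint is DNA methylation laid down in one parent's germ line at a control region, which the embryo keeps through later cell divisions. For several of these genes the methylated maternal promoter is silent and the unmethylated paternal promoter is active. The zinc finger protein ZFP57 protects such methylation by binding the hexamer TGCCGC when it is methylated. Many imprinted genes act in fetal growth, placenta and brain.

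Total counts ranged from 20648916 to 44519020 per library, and 17110 of the 52632 genes passed the filter on low counts, all 9 members among them. Smchd1 stood at 94.2 to 127.9 CPM (counts scaled to a common library size) in E147A/+ libraries and 122.5 to 191.8 CPM in +/+ libraries, which overlap. Summed neural stem cell markers were 5006 to 6887 CPM in E147A/+ and 4834 to 6736 CPM in +/+ libraries. Summed oligodendrocyte lineage markers (6 genes) were 1234 to 1878 CPM in E147A/+ and 1716 to 1804 CPM in +/+ libraries, neuron markers (7 genes) 546 to 770 and 611 to 1036 CPM, and astrocyte markers (4 genes) 36.1 to 117.8 and 37.9 to 78.6 CPM. Mesenchymal and meningeal markers (7 genes) summed to 7.30 to 18.7 CPM in E147A/+ and 5.63 to 16.9 CPM in +/+ libraries, and endothelial markers (4 genes) to 0.485 to 2.46 and 0.657 to 2.90 CPM. Summed microglial markers (6 genes) stayed at or below 0.435 CPM and summed choroid plexus markers (3 genes) at or below 0.796 CPM. Y-linked counts in female +/+ replicate 1 were 1.72% of the male mean, against 0.0413% to 0.432% in the other female libraries. Without that library the members called stayed at 0 and the members at 90% Cast or more at 7. The labels describe a cross in which each chromosome pair holds 1 Cast copy, but in each female library only 32.9% to 50.3% of the autosomal genes with at least 20 allele-resolved counts lay among neighbours that carried Cast. A further 45.7% to 62.8% lay among neighbours whose median Cast share was under 15%, and 311 to 532 genes per library were in neither state. Where the paternal copy does not carry Cast, these counts cannot tell it from the maternal copy.

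Promoter sequences are given for members on which the allelic results turn. RefSeq windows of 300 bases (250 before to 50 after a start, GRCm38.p6) were taken for 6 of the 9 members. Peg10 and Sgce had no window, and the chromosome of Impact was left out of the search, so Impact was not looked up. The Peg3 window (chr7:6730370-6730669, minus strand) is shown because Peg3 and Usp29 start head to head and were read in the same libraries. Capitals mark CpG.
Peg3: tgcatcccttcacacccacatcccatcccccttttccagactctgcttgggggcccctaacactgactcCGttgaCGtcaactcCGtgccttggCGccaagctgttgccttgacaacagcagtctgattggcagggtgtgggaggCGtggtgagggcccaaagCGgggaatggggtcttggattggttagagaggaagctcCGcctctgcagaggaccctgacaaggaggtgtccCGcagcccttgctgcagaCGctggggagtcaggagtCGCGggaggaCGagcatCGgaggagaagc
The Usp29 window lies on the opposite strand and shares 263 of its 300 bases with this one. Mest has 3 windows, of which 2 start 3 bases apart. The first of these (chr6:30737800-30738099, plus strand) and the Plagl1 window (chr10:13090582-13090881, plus strand) are shown because they hold the ZFP57 hexamer, searched as TGCCGC and, for the other strand, GCGGCA. Capitals mark the matches, 2 in Mest and 1 in Plagl1.
Mest: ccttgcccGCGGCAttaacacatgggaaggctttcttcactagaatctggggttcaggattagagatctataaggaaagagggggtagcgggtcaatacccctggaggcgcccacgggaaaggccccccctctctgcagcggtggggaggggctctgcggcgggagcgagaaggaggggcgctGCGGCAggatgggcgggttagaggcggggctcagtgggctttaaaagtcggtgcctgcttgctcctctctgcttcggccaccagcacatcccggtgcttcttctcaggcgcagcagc
Plagl1: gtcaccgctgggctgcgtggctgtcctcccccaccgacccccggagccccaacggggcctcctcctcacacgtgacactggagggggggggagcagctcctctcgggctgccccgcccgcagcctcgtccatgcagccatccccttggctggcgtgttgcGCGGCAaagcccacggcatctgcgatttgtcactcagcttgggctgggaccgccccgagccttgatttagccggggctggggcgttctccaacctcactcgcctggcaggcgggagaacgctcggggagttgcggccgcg
The third Mest window, at chr6:30733256-30733555, held none, and neither did those of Peg3, Usp29 and Inpp5f. The Nnat window held 1 match. Of all 32851 windows of that length, 11.61% held at least 1 match. CpG counts were 26 in Plagl1, 17 in Nnat, Usp29 and the printed Mest window, 15 in Inpp5f, 13 in Peg3 and 8 in the third Mest window, against a median of 7 over all windows. Of all windows, 83.1% had fewer CpG than Plagl1 and 62.1% had fewer than Peg3.

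The allelic question was whether each gene was read from the paternal copy alone. It can be answered only where the paternal copy carries Cast, so each member was set beside the genes within 5 Mb on both sides that had at least 20 allele-resolved counts, imprinted and shared-domain genes left out. A median Cast share of 35% to 65% among at least 5 such neighbours was called Cast-carrying, and under 15% was called without Cast. Of the 36 pairs of a member and a female library, 14 were Cast-carrying, 20 were without Cast and 2 were mixed. Medians of the neighbours were 48.2% to 54.0% in the Cast-carrying pairs and at most 4.15% in those without Cast. Shares below carry 95% Wilson intervals. A limit given for a count of 0 is 3 counts of the total, with the wider Wilson limit beside it, and all of these cover counting error only.

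**Figure D1:**
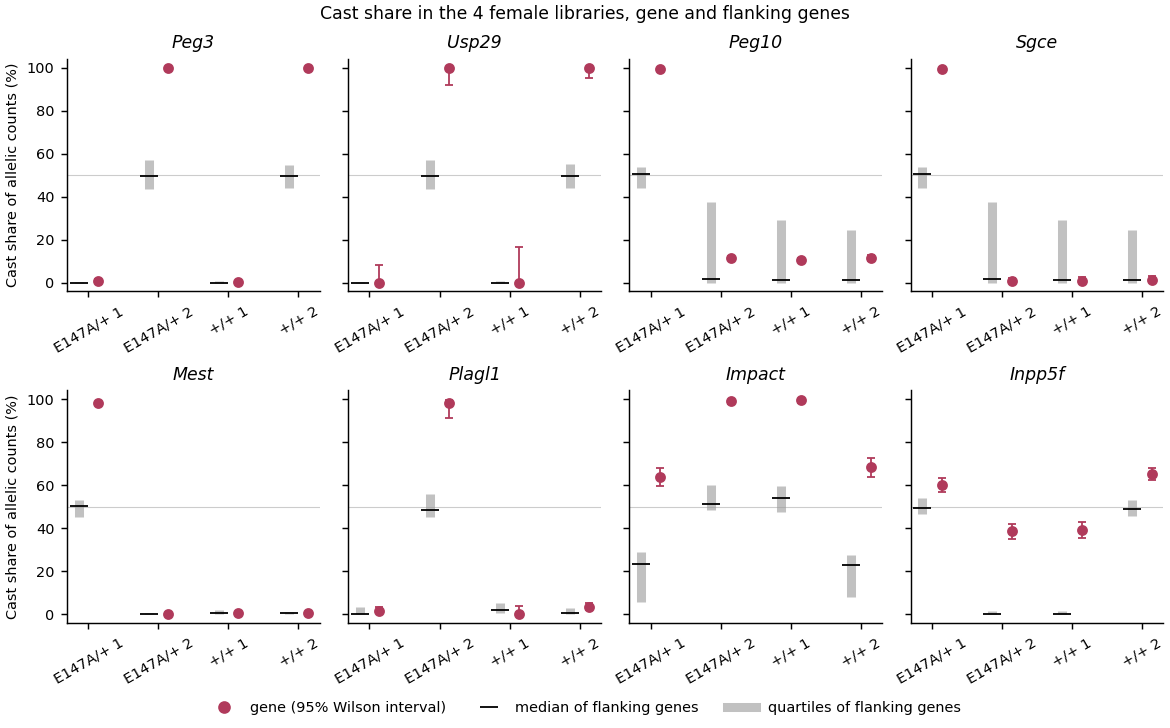
Cast share of allele-resolved counts (y axis, %) for 8 members in the 4 female libraries (x axis), with the 95% Wilson interval of the gene beside the median and quartiles of its neighbours within 5 Mb. Where neighbours sit near 50%, 7 of the 8 genes lie above 98%, while Inpp5f lies at 60.1% and 65.3%.

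Peg3 encodes a zinc finger transcription factor and is a maternally silenced gene of chromosome 7 (GRCm38 chr7:6703892-6730431, minus strand, ENSMUSG00000002265). In E147A/+ replicate 2 all 1363 allele-resolved Peg3 counts were Cast, which allows a 129 share of up to 0.220% (Wilson limit 0.281%). In +/+ replicate 2, 607 of 609 were Cast, or 99.7% (98.8% to 99.9%). The neighbours' medians there were 49.6% and 49.5%. In the 2 libraries without Cast around the locus, Peg3 was read from the 129 column, with 8 Cast counts of 942 in E147A/+ replicate 1 and 3 of 1253 in +/+ replicate 1.

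Usp29, a ubiquitin protease gene that starts 146 bases from Peg3 on the other strand (chr7:6730578-6967219, plus strand, ENSMUSG00000051527), followed the same pattern at far lower depth. All 44 counts in E147A/+ replicate 2 and all 78 in +/+ replicate 2 were Cast, which allows 129 shares of up to 6.82% and 3.85% (Wilson limits 8.03% and 4.69%). In the other female libraries 0 of 42 and 0 of 19 counts were Cast. The nearest usable neighbours on the 2 sides were Zfp28, at 35.3% and 33.3% Cast in the same Cast-carrying libraries, and Zfp954, at 60.2% and 49.4%. Zim1, a zinc finger gene of the same domain known as maternally expressed in some tissues, stood at 47.4% of 78 counts and 47.8% of 46. Within one imprinted domain, the one-sided share of Peg3 and Usp29 therefore sat beside a domain gene read from both copies.

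**Figure D2:**
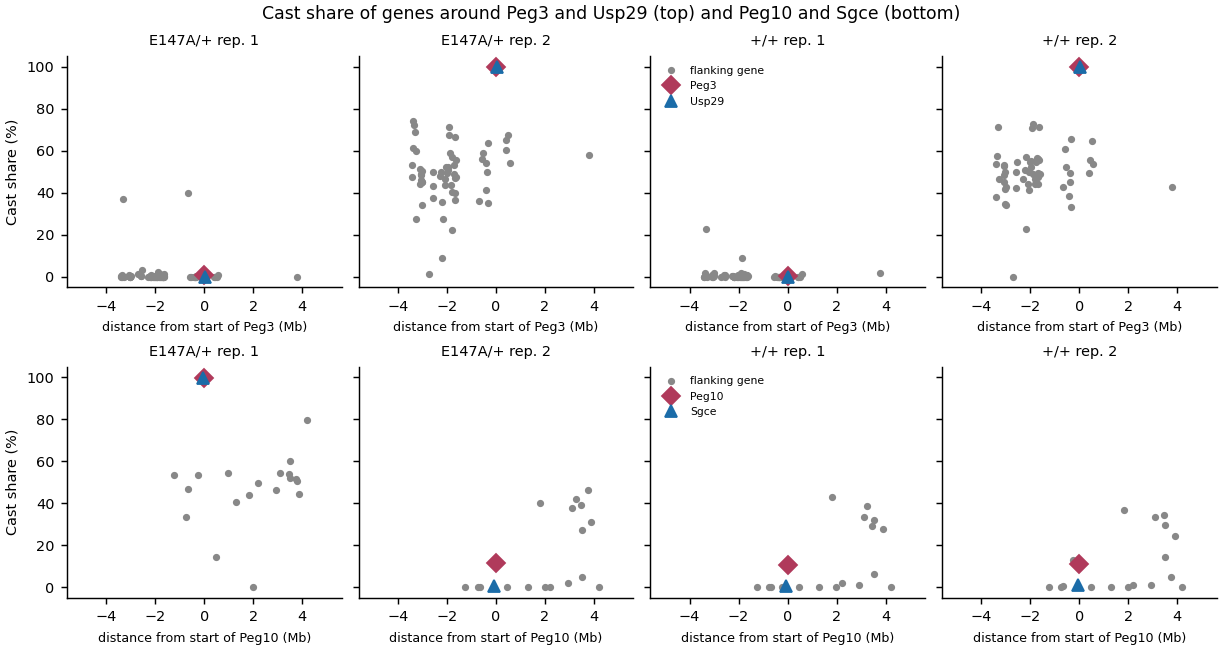
Cast share (y axis, %) of each gene within 5 Mb of Peg3 and Usp29 (top) or Peg10 and Sgce (bottom) against its distance in Mb (x axis), in the 4 female libraries. Peg3 and Usp29 lie at 99.7% to 100% in the 2 libraries whose neighbours lie near 50%, and Peg10 and Sgce at 99.6% and 99.4% in the 1 such library.

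Peg10 derives from a retrotransposon and is needed for the placenta, and Sgce encodes epsilon-sarcoglycan, a membrane protein linked to myoclonus dystonia. They start 98 bases apart on chromosome 6 (Peg10 chr6:4747306-4760517, plus strand, ENSMUSG00000092035, and Sgce chr6:4674350-4747207, minus strand, ENSMUSG00000004631). Cast lay around them in E147A/+ replicate 1 alone, where the neighbours' median was 50.6%. There Peg10 had 11260 Cast counts of 11310, or 99.6% (99.4% to 99.7%). Sgce had 497 of 500, or 99.4% (98.3% to 99.8%). The nearest usable neighbours were Bet1, at 46.7% (621 Cast counts), and Gm44250, at 14.3% but with only 3 counts on Cast and 18 on 129. Both genes of the pair were thus read almost wholly from the Cast copy in that library.

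Other genes of the same domain were not. Casd1, which codes for a sialic acid acetyltransferase, stood at 50.4% Cast of 397 counts in E147A/+ replicate 1. Ppp1r9a, which codes for neurabin and is maternally expressed in some tissues, stood at 60.2% of 3503 counts. Asb4 was at 54.4% of 68 counts and Pdk4, a pyruvate dehydrogenase kinase gene, at 64.6% of 277. Pon2, a paraoxonase gene, was at 9.55% of 880 counts there, but it was also at 14.9% to 19.1% in the 3 libraries without Cast, so its counts do not follow the state of the locus. None of the 10 readable genes that share a domain with a member reached 90%.

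In libraries without Cast around the locus, Sgce had 0.610% to 1.15% Cast counts, close to its neighbours, while Peg10 had 11.7%, 10.5% and 11.3%. The Peg10 values were alike in E147A/+ and +/+ cells and lie within the wide range of their neighbours, of which Sem1 had 36.9% to 42.8% Cast in the same libraries. Among all readable autosomal genes in flanks without Cast, 17.6% to 20.0% had a Cast share over 10%. A Cast share of this size without Cast in the region is therefore common in these counts, and how maternal C57 alleles were assigned is not given in the sources used here.

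Mest codes for a protein of the alpha/beta hydrolase family, is expressed in mesoderm and brain, and affects growth and maternal behaviour (chr6:30723547-30748465, plus strand, ENSMUSG00000051855). Cast lay around it in E147A/+ replicate 1, with a neighbours' median of 50.3%. There 2738 of 2786 Mest counts were Cast, or 98.3% (97.7% to 98.7%), and the 48 counts on 129 are more than Peg3 or Usp29 showed. Copg2, a coat protein gene whose end overlaps the end of Mest on the opposite strand, was at 45.5% of 659 counts in the same library. Klhdc10 was at 43.0% of 906 counts, and Cep41, the nearest usable neighbour on one side, at 61.2% (131 counts on Cast and 83 on 129). Gm13835, the nearest on the other side, was at 21.9% there (99 counts on Cast and 354 on 129). It was also at 22.1% and 21.3% in the +/+ libraries without Cast, but at 0.214% in E147A/+ replicate 2, likewise without Cast. Its share was thus alike in the Cast-carrying library and in the +/+ libraries without Cast, so its counts do not follow the state of the locus. In the other 3 libraries Mest had 0.211% to 0.661% Cast counts. The kit is strand-specific per the labels, but the strand setting of the counting is not given in the sources used here, so reads in the overlap may be counted to either gene.

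Plagl1, also called Zac1, codes for a zinc finger factor that restrains proliferation and is known to act on other imprinted genes (chr10:13060504-13131694, plus strand, ENSMUSG00000019817). In E147A/+ replicate 2, the one library with Cast around it, 60 of 61 counts were Cast, or 98.4% (91.3% to 99.7%). The neighbours Sf3b5 and Ltv1 were at 59.0% and 49.9% there, and at 12.7% to 13.3% and 0.548% to 1.33% in the other libraries. In the libraries without Cast, Plagl1 had 5 Cast counts of 337, 0 of 93 and 12 of 388, and the last, 3.09% in +/+ replicate 2, is the highest. The library in which Plagl1 was read from Cast was also the one with its lowest total level, 3.40 CPM, against 7.58 to 23.8 CPM in the other female libraries. With 1 library, strain and library cannot be told apart.

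Impact codes for a regulator of translation under amino acid shortage and lies on chromosome 18 (chr18:12955852-12992950, plus strand, ENSMUSG00000024423). It was read in both genotypes, with 487 Cast counts of 491 in E147A/+ replicate 2 (99.2%, 97.9% to 99.7%) and 397 of 399 in +/+ replicate 1 (99.5%, 98.2% to 99.9%). The other 2 libraries had mixed neighbours, with medians of 23.5% and 23.0%, and Impact stood at 63.9% of 465 and 68.4% of 405 counts. Osbpl1a, the nearest neighbour on one side, was at 27.5% and 25.3% in those libraries, and Zfp521 on the other side was at 0 of 378 and 0 of 268 counts. Impact thus had a higher Cast share than the neighbours on either side in all 4 libraries.

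Inpp5f codes for a phosphoinositide phosphatase, and in mouse brain a shorter transcript from an internal promoter is the imprinted one, while the main transcript is not (chr7:128611328-128696425, plus strand, ENSMUSG00000042105). The counts here cover the gene as a whole. With Cast in the region, 518 of 862 counts were Cast in E147A/+ replicate 1 (60.1%, 56.8% to 63.3%) and 743 of 1137 in +/+ replicate 2 (65.3%, 62.5% to 68.1%). Both intervals lie above the neighbours' medians of 49.4% and 48.9% and far below the shares of the other members. Without Cast in the region, 38.6% and 39.2% of its counts still fell in the Cast column, while the neighbours' medians were 0.147% and 0.203%.

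That raised share also appears next to Inpp5f. Bag3 had 36.6% and 38.6%, and Mcmbp, whose end lies 15 bases from the end of Inpp5f, had 20.3% and 19.8% Cast in the same 2 libraries. Over all readable autosomal genes in flanks without Cast, 5.26% to 6.52% were over 35%. The 309 other genes with 30% to 50% Cast in every library without Cast had a median of 50.5% (quartiles 45.8% and 53.8%) where their flanks carried Cast. Inpp5f, at 60.1% and 65.3%, lay above the upper quartile of these genes, which is a description and not a test.

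Nnat, which codes for a small membrane protein of developing brain, lies inside an intron of Blcap on the opposite strand (chr2:157560078-157562522, plus strand, ENSMUSG00000067786). Of 2705 to 7872 Nnat counts per female library only 5 to 10 were allele-resolved, or 0.0660% to 0.269%. The 2 libraries with Cast around it had 2 Cast counts of 10 and 3 of 7. Paternal-only expression could not be read from so few allele-resolved counts. Blcap, which is read from both copies in many tissues, was at 47.9% of 163 and 32.1% of 106 counts in those libraries.

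A scan of all autosomal genes gives the background for these shares. The rule, set with the members' shares known, asked for at least 90% Cast in each Cast-carrying library and at most 15% in each library without Cast, with at least 20 allele-resolved counts. It was met by 26 of 9965 readable genes (0.261%) and by 6 of the 7 readable members, all but Inpp5f. Impact had no library without Cast and so was outside this count. Within single libraries, 1.63%, 1.82%, 1.56% and 2.15% of genes in Cast-carrying flanks reached 90%, in the order E147A/+ replicates 1 and 2 and +/+ replicates 1 and 2. Members did so in 3 of 4, 4 of 4, 1 of 1 and 2 of 3 cases in that order, Inpp5f being the exception in both libraries where one fell short.

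Imprinted genes outside the 9 show both directions. Of 14 readable paternally expressed genes from a separate list, 6 met the same rule: Airn, Kcnq1ot1, Nap1l5, Peg13, Snrpn and Zrsr1. Snrpn, a splicing protein gene, had 415 Cast counts of 415 in +/+ replicate 2, and Kcnq1ot1, a long noncoding RNA, was at 100% in 3 libraries. None of 11 readable maternally expressed genes met it, and 6 of them had at most 10% Cast in every Cast-carrying library and at most 15% elsewhere, as did 1.85% of all readable genes. Among these, Grb10, a growth factor receptor adaptor, had 6 Cast counts of 1620 and 6 of 2719, and H19 had 4 of 392, 0 of 80 and 2 of 525. With Cast always paternal by the labels, a strain effect and a parent-of-origin effect cannot be told apart gene by gene, and no library of the reverse cross was analysed here. In the same libraries, these 6 maternally expressed genes lay at the other end of the Cast share.

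Total levels did not follow the Cast state in 1 direction. In libraries without Cast, Peg3 stood at 59.5 and 110.5 CPM, and with Cast at 85.1 and 45.4 CPM, so the ranges overlap. Mest was at 499 CPM with Cast and 491 to 945 CPM without. Peg10 was at 885 CPM with Cast and 165 to 532 CPM without, and Sgce at 43.4 and 32.0 to 33.9 CPM. Usp29 was at 2.50 and 4.83 CPM with Cast and 1.72 and 2.45 CPM without. Plagl1 went the other way, at 3.40 CPM with Cast and 7.58 to 23.8 CPM without. The median ratio of the mean level with Cast to that without was 1.05 for these 6 members. Of them, 3 were higher in every library with Cast. So were 2 of the 6 other paternally expressed genes that met the scan's rule, and 11 of 14 unlisted genes that met it. The share over all genes was not worked out, so these counts are descriptions only.

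Members differed in how steady their level was. Over all 10 libraries, Peg10 ranged 9.42-fold from lowest to highest, Plagl1 about 7.0-fold and Mest 6.37-fold. Impact ranged 1.58-fold, Sgce 1.72-fold and Inpp5f 1.85-fold. The spread of log2 CPM within groups put Peg10 at the 91.0th percentile of all tested genes, Mest at the 89.5th, Plagl1 at the 88.7th, Impact at the 33.4th and Sgce at the 10.6th. Peg10 and Sgce, whose starts are 98 bases apart, thus lie near opposite ends.

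**Figure D3:**
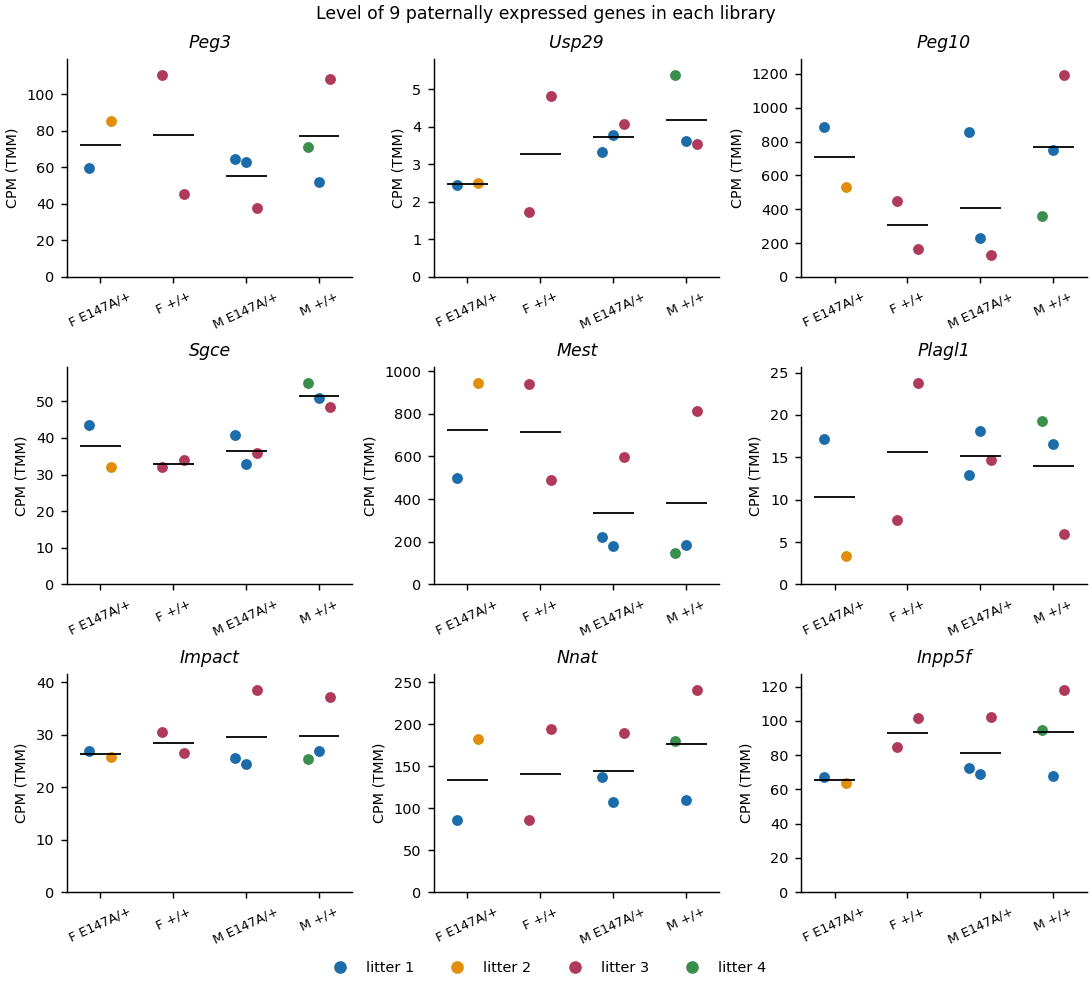
Level of each member (y axis, CPM after TMM scaling) in each library, by sex and genotype (x axis), with points coloured by litter and bars at group means. Peg10, Mest and Plagl1 spread widely within groups, and in males Sgce is lower in all 3 E147A/+ libraries (32.9 to 40.7 CPM) than in all 3 +/+ libraries (48.4 to 55.0 CPM).

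Levels between genes were compared per kilobase of exon. Median levels were 125.4 CPM per kb for Mest, 86.6 for Nnat and 73.7 for Peg10, whose ranges over libraries overlap. Inpp5f followed at 9.43 CPM per kb, below Peg10 in 10 of 10 libraries with no overlap, and above Impact at 5.20, again without overlap. Impact, Peg3 at 4.79, Sgce at 3.61 and Plagl1 at 2.00 overlapped with their neighbours in this order. Usp29 was lowest at 0.198 CPM per kb, with no overlap with Plagl1. Peg3 and Usp29, read from the same allele and separated by 146 bases, therefore differ widely in level.

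The genotype comparison asked whether E147A/+ cells differ from +/+ cells, by edgeR's quasi-likelihood test over all 17110 genes with Benjamini-Hochberg adjustment. Over both sexes 14 genes passed an adjusted p of 0.05 (0.0818% of those tested), and none was a member. No member had an unadjusted p under 0.05 in that comparison, and none was called by DESeq2 or limma-voom. Fold changes of 8 members were negative and 1 positive, with a median log2 fold change of -0.18 against -0.014 over all genes, of which 48.0% were positive. With litter as a covariate 5 were negative and 4 positive, with a median of -0.023. Adjusted p-values ranged from 0.821 to 0.978. The labels do not say that the cultures of a group are independent beyond their litter, so p-values measure the spread between these libraries. In bulk RNA, fewer cells of a type and less RNA per cell cannot be told apart. Of the 6 oligodendrocyte lineage markers none was called by edgeR, with 2 positive and 4 negative. Pdgfra (log2 fold change -2.38, edgeR adjusted p 0.249) and Sox10 (-2.29, adjusted p 0.727) had the lowest p. The part of such cells in the members' levels was not tested.

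**Figure D4:**
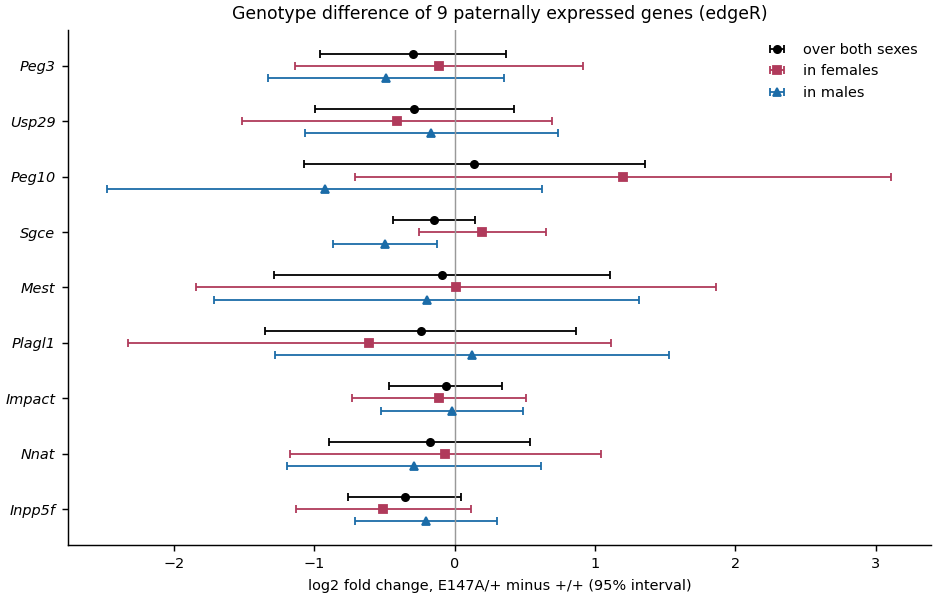
Log2 fold change of each member, E147A/+ minus +/+ (x axis), over both sexes, in females and in males (edgeR, bars are 95% intervals). All intervals span 0 except that of Sgce in males, from -0.87 to -0.12, whose adjusted p is 1.00.

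Peg3 in E147A/+ females was at 59.5 and 85.1 CPM and in +/+ females at 110.5 and 45.4 CPM. E147A/+ males had 64.5, 63.2 and 37.5 CPM and +/+ males 71.4, 51.9 and 108.6 CPM. The groups overlap in both sexes, and the difference over both sexes was -0.30 on the log2 scale (SE 0.30, edgeR adjusted p 0.846). Usp29 was at 2.45 and 2.50 CPM against 1.72 and 4.83 CPM in females, and at 3.32, 3.78 and 4.09 CPM against 5.38, 3.61 and 3.54 CPM in males. These groups overlap too (log2 fold change -0.29, SE 0.32, edgeR adjusted p 0.860). Across the 10 libraries log2 CPM of the head-to-head pair had a Pearson r of -0.55, given as a description of libraries that share litters.

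Peg10 varied most. E147A/+ females had 885 and 532 CPM, and +/+ females 451 and 165 CPM. E147A/+ males had 858, 231 and 127 CPM, and +/+ males 362, 753 and 1192 CPM. The female groups do not overlap and the male groups do, with opposite signs of the difference. In females, with 2 libraries against 2, the groups of 41.0% of all tested genes did not overlap. The log2 fold change was 1.20 in females (SE 0.85, edgeR adjusted p 0.964) and -0.92 in males (SE 0.69, adjusted p 1.00). The test of the difference between the sexes gave 2.127 (SE 1.10, unadjusted p 0.083, adjusted p 0.999). Over both sexes it was 0.14 (SE 0.54). Within litter 1 the male difference in log2 CPM was -0.76 and within litter 3 it was -3.23. Leaving out single libraries moved the female value from 0.65 (without +/+ replicate 2) to 2.10 (without +/+ replicate 1) and the male value from -0.46 (without +/+ replicate 3) to -2.10 (without E147A/+ replicate 1). The sex difference moved from 1.58 to 3.31, and no adjusted p fell under 0.05.

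Sgce came closest to a difference in 1 sex. E147A/+ males had 40.7, 32.9 and 35.9 CPM and +/+ males 55.0, 50.9 and 48.4 CPM, with no overlap. In males 3.96% of all tested genes were likewise lower without overlap, and 1225 of 17110 had no overlap in either direction. A gap of this kind is therefore not rare. The log2 fold change in males was -0.50 (SE 0.17, unadjusted p 0.0140), but the edgeR adjusted p was 1.00, in a comparison that called 4 genes (0.0234%). Within litter 1 the male difference in log2 CPM was -0.48 and within litter 3 it was -0.43. In females, E147A/+ cells had 43.4 and 32.1 CPM and +/+ cells 32.0 and 33.9 CPM, which overlap. The sex difference in effect was 0.69 (SE 0.26, unadjusted p 0.0251, edgeR adjusted p 0.999), and it ranged from 0.44 without female E147A/+ replicate 1 to 0.89 without female E147A/+ replicate 2. That test called 0 genes (0.0%), with 314 genes under an unadjusted p of 0.05 and 2 called by DESeq2.

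Mest levels were not separated by genotype. E147A/+ females had 499 and 945 CPM and +/+ females 941 and 491 CPM. Males had 224, 178 and 600 CPM in E147A/+ and 148, 185 and 815 CPM in +/+ cells. In males of both genotypes the litter 3 library was the highest of its group, while litters 1 and 4 were at 148 to 224 CPM. Summed mesenchymal and meningeal markers were also highest in those male litter 3 libraries, at 18.7 CPM in E147A/+ and 16.9 CPM in +/+ cells. In the other 8 libraries they summed to 5.63 to 12.1 CPM. The female libraries with the most Mest, at 945 and 941 CPM, had marker sums of 7.79 and 8.82 CPM. Summed neural stem cell markers were also the highest of their male group in those litter 3 libraries, at 6887 CPM in E147A/+ and 6556 CPM in +/+ cells. In the female libraries just named they summed to 6593 and 6736 CPM. The part of any of these cells in the Mest levels was not tested. The Mest difference over both sexes was -0.09 on the log2 scale (SE 0.54, edgeR adjusted p 0.978), with an interval from -1.29 to 1.10. With litter as a covariate the value was 0.59 (edgeR adjusted p 0.980), and 8 of 17 alternatives reversed its sign.

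Plagl1 stood at 17.2 and 3.40 CPM in E147A/+ females, at 7.58 and 23.8 CPM in +/+ females, at 12.9, 18.1 and 14.7 CPM in E147A/+ males and at 19.3, 16.6 and 5.97 CPM in +/+ males. All groups overlap (log2 fold change -0.24, SE 0.50, edgeR adjusted p 0.925). A list of 16 genes of a network known around Plagl1 includes 5 of the members. None of the 16 was called by edgeR, with 7 positive and 9 negative and a median of -0.12. Ndn, a gene known to limit cell growth, had the lowest p in this list (log2 fold change 0.63, SE 0.17, edgeR adjusted p 0.547).

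Impact was at 26.9 and 25.8 CPM in E147A/+ females and 30.5 and 26.4 CPM in +/+ females. Males had 25.6, 24.3 and 38.4 CPM in E147A/+ and 25.4, 26.9 and 37.1 CPM in +/+ cells. The groups overlap, and in each male genotype the litter 3 library was the highest. That library also had the highest mesenchymal and neural stem cell marker sums of its male group, and the part of such cells was not tested. Its log2 fold change was -0.06 with an interval from -0.47 to 0.34 (SE 0.18, edgeR adjusted p 0.95).

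Nnat was at 86.0 and 182.0 CPM against 86.1 and 194.6 CPM in females, and at 137.1, 107.6 and 189.2 CPM against 179.8, 109.1 and 240.1 CPM in males, E147A/+ first. The groups overlap (log2 fold change -0.18, SE 0.32, edgeR adjusted p 0.913). Inpp5f was at 67.4 and 63.7 CPM in E147A/+ females and 84.7 and 101.5 CPM in +/+ females, without overlap, as in 41.0% of all tested genes. In males it was at 72.2, 68.7 and 102.2 CPM and at 94.7, 67.6 and 117.8 CPM, with overlap. Inpp5f had the lowest p of the members over both sexes (log2 fold change -0.36, SE 0.18, unadjusted p 0.0755, edgeR adjusted p 0.821). With litter as a covariate the value was 0.065 (edgeR adjusted p 0.982). The female comparison called 2 genes (0.0117%), and no member had an unadjusted p under 0.05 in it. No member had levels without overlap over both sexes, as 1.44% of genes did.

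Inpp5f levels lay apart by litter as well. All 4 litter 3 libraries, of both sexes and genotypes, were at 84.7 to 117.8 CPM, and the 4 litter 1 libraries at 67.4 to 72.2 CPM. How many of all tested genes separate these litters in this way was not counted, so this is a description only. Within litter 1 the male difference in log2 CPM was 0.06 and within litter 3 it was -0.21. No litter holds females of both genotypes, so in the females alone litter and genotype cannot be told apart.

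Lists of related genes gave no call by edgeR in the genotype comparison. Calls of these genes under the alternatives are not given here. Of 18 tested genes among 23 other paternally expressed genes, 11 were positive and 7 negative with a median log2 fold change of 0.12, and 4 had an unadjusted p under 0.05, as did 1010 of all 17110 genes (5.90%). These were Mkrn3, a zinc finger and E3 ligase gene (0.94, SE 0.14, edgeR adjusted p 0.0609), Magel2 (1.37), Ndn (0.63) and Peg12 (0.68). Snrpn, of the same list and chromosome, had a value of -0.27 (unadjusted p 0.161, edgeR adjusted p 0.824). The 14 tested maternally expressed genes had a median of 0.07 and the 12 tested genes sharing a domain with a member 0.14. Of 15 tested genes for imprint maintenance and imprinted silencing, Smchd1 (-0.42) and Zfp57 (0.85, SE 0.33, unadjusted p 0.0275, edgeR adjusted p 0.803) had the lowest p, and the median was 0.004. The other paternally expressed genes and the 9 members thus have medians of opposite sign, a difference that was not tested.

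By Pearson r of log2 CPM over the 10 libraries, the gene most like each member outside 5 Mb was Trp53bp2 for Peg3 (0.98), Phactr3 for Usp29 (0.98), Ncam2 for Inpp5f (0.98), Gm6292 for Mest (0.97) and C1ql1 for Plagl1 (0.96). It was Leprotl1 for Impact (0.93), Gpc5 for Nnat (0.92), Gm37274 for Peg10 (0.91) and Lats2 for Sgce (0.88). The 10 libraries share litters, and each gene was picked as the highest of all tested, so these values are descriptions only.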

How the data were processed

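PolyA RNA of 10 mouse neural stem cell cultures was sequenced (80 bp paired-end reads). The authors deposited 1 table of raw counts per gene, with 10 columns of total counts and 8 of counts split into 129 and Cast alleles for the 4 female libraries. The submitters' processing notes name Trim Galore 0.4.4, HISAT2 2.0.5, featureCounts, R 3.5.1, edgeR 3.24.0 and the builds GRCm38 and mm10. How reads were split by allele, and whether counting used strand, is not given in the sources used here. Gene positions matched GENCODE M21 for 98.74% of shared identifiers. Rows with an Ensembl number and no symbol held 0.694% of counts and were kept.

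Counts were fitted with edgeR 4.0.16 (filterByExpr, TMM, quasi-likelihood test, 4 group means, 10 libraries, 6 residual degrees of freedom, R 4.3.3), and p-values were adjusted over 17110 genes. CPM used TMM-scaled library sizes and levels per kb the union of GENCODE exons. DESeq2 1.42.0, limma 3.58.1 (voom), other scaling and filters, litter, a replicate block and leaving out each library were the alternatives. The edgeR fit and the allele scan were tested on simulated data. Same-numbered libraries did not deviate together in every pair (correlations of -0.30 in females and -0.24, 0.42 and 0.03 in males), so replicate numbers were not taken to pair samples. No 2 libraries of a group agreed within sampling noise. The named genes are the 9 members, the 5 list genes with the lowest p or most allele-resolved counts where needed, the nearest usable neighbours and the gene most like each member. The members and lists were chosen with earlier results of these data known.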

Additional observations from a re-analysis of the deposited data

Results flagged for a closer look

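A gap test on the members' levels in the 5 libraries of each genotype (18 groups) marked 2 results, where chance marks about 1 group in 20. Impact stood at 38.4 CPM in male E147A/+ replicate 3, against 24.3 to 26.9 CPM in the other E147A/+ libraries. Inpp5f stood at 102.2 CPM in the same library, against 63.7 to 72.2 CPM. This is the only E147A/+ library of litter 3, and male +/+ replicate 3 of that litter was also the highest +/+ library for Impact (37.1 CPM) and Inpp5f (117.8 CPM). Summed mesenchymal and meningeal markers were also highest in these libraries, at 18.7 and 16.9 CPM against 5.63 to 12.1 CPM in the other 8. Summed neural stem cell markers were the highest of their male group there, at 6887 and 6556 CPM. Neuron and oligodendrocyte lineage sums were the lowest of the E147A/+ libraries in the first (546 and 1234 CPM). In the second they were the highest of the +/+ libraries (1036 and 1804 CPM). The part of litter or of any of these cells in the Impact and Inpp5f values was not tested.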

How the results depend on the processing

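None of the 9 members was called in any of the 4 genotype comparisons under any of the 18 alternatives run where they apply. The lowest adjusted p was 0.432 for the 9 members over both sexes, with Peg10 and Sgce in the other comparisons, and those of the other members there are not tabulated. The direction of small fold changes over both sexes did change. With limma-voom Peg3 became 0.010 and Mest 0.018. With litter as a covariate Peg10 became -0.52, Mest 0.59, Impact 0.22, Nnat 0.042 and Inpp5f 0.065. With the replicate block Peg10 became -0.016 and Mest 0.026, and the block changed no call of a member. The causes were not tested.

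Over all genes, calls over both sexes went from 14 to 113 with DESeq2, 29 with limma-voom, 33 without a filter, 9 with 10 counts in every library and 3 with litter. In females 2 calls became 46 with DESeq2, 8 without a filter, 1 with only the compared groups and 0 with litter or the block. In males 4 became 48 with DESeq2, 14 without a filter, 9 with limma-voom, 2 with litter and 1 with only the compared groups. The interaction went from 0 to 2 with DESeq2 and 1 with litter. Leaving out single libraries gave 2 to 12 calls over both sexes, lowest without female E147A/+ replicate 2, then 3 without female +/+ replicate 1, and 0 to 2 in females, 1 to 4 in males and 0 to 1 for the interaction.

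Leaving out each library in turn, log2 fold changes over both sexes ranged from -0.55 to 0.10 for Peg3, -0.56 to 0.18 for Usp29, -0.45 to 0.60 for Peg10, -0.25 to -0.03 for Sgce, -0.46 to 0.51 for Mest, -1.04 to 0.28 for Plagl1, -0.18 to 0.030 for Impact, -0.48 to 0.17 for Nnat and -0.46 to -0.26 for Inpp5f. Sgce in females ranged from -0.034 to 0.42 and in males from -0.58 to -0.43. The count of members at 90% Cast or more stayed at 7 with flank windows of 2 or 10 Mb, flank minimums of 10 or 50 counts and summed counts. Leaving out single libraries it ranged from 4 to 7. The 4, of 5 members then readable, were without E147A/+ replicate 1, the one library that carries Cast around Peg10, Sgce and Mest. For the scan, thresholds chosen after seeing the data gave 16 genes at 95% Cast, 73 at 80%, 17 at a minimum of 50 counts and 40 at 10, with 6, 6, 5 and 6 members. Few allele-resolved counts limit Nnat and the shares of Usp29 and Plagl1.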

Other observations

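The scan for genes with at least 90% Cast counts where neighbours carried Cast and at most 15% elsewhere also met 14 genes outside the members and lists. They were Arfgef3, As3mt, Bace2, Cep83os, Gad1, Gm26862, Gm38393, Hebp2, Klk14, Ptpn18, Slc26a7, Snhg14, Tmc3 and Unc5d. Gad1, which codes for an enzyme of GABA synthesis, had 281 Cast counts of 287, 79 of 79 and 267 of 285 in its 3 Cast-carrying libraries, and 0 of 47 in the library without Cast. Snhg14 and Gm38393 lie on chromosome 7 in the Snrpn region and had 98.8% and 99.2% Cast in +/+ replicate 2. Klk14 had 24 allele-resolved counts in its one Cast-carrying library, close to the minimum of 20.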
